A study of Rattus norvegicus with 2 samples.

Results

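The platelet-derived growth factor (PDGF) family was followed through the cell types of skeletal muscle by single-cell RNA sequencing of 1 rat-mouse chimera and 1 Sprague Dawley (SD) rat. The 6 members, taken by gene name from the deposited tables, were the 4 ligand genes Pdgfa, Pdgfb, Pdgfc and Pdgfd and the 2 receptor genes Pdgfra and Pdgfrb. Each had 1 row among the 23373 rat genes of the SD rat table, and 1 rat and 1 mouse row among the 49280 rows of the chimera table, so that 12 chimera rows were read. The chimera was an SD rat that, as a morula, had received mouse induced pluripotent stem cells carrying an edited Dmd mdx allele and the Pax7-nGFP reporter. The SD rat received no mouse cells. The labels give neither the age nor the sex of either animal. Muscle came from the whole body of each animal, and living cells were sorted with a viability dye. With 1 library per group no test between animals was possible, so each interval below is a 95% interval that covers counting error only.

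PDGF ligands are secreted dimers that bind 2 receptor tyrosine kinases, PDGFRα and PDGFRβ, and trigger growth and migration of mesenchymal cells. PDGF-B from endothelium is known to recruit pericytes, which carry PDGFRβ, to new vessels, whereas PDGFRα marks the fibro-adipogenic progenitors (FAPs) of muscle. PDGF-C and PDGF-D differ from the other ligands in that a CUB domain must be cut off by a protease before they can bind.

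The rat promoter windows of Pdgfb and Pdgfd are printed because these ligands differed most between mouse and rat endothelial cells below. RefSeq windows on build GRCr8, with 250 bases before and 50 after the start, were at hand for 5 of the 6 members, all but Pdgfrb. Capitals mark exact matches, on either strand, to a GC box (GGGCGG) or an ETS core (AGGAAG), which did not overlap. The Pdgfb window lies at chr7:113438294-113438593 on the minus strand and the Pdgfd window at chr8:11773258-11773557 on the plus strand.
Pdgfb: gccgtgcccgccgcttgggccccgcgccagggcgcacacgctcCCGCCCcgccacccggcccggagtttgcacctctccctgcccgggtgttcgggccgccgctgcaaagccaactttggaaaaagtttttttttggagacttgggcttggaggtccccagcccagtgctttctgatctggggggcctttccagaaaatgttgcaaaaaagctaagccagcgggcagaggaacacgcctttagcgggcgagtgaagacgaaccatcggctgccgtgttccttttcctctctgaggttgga
Pdgfd: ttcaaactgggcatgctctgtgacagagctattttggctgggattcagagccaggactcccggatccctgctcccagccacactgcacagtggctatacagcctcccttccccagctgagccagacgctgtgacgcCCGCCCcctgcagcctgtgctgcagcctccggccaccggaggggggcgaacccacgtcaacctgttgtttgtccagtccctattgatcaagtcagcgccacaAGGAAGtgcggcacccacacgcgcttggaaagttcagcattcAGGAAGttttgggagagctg
The Pdgfb window held 1 GC box, and the Pdgfd window held 1 GC box and 2 ETS cores. Pdgfa held 1 of each, and neither motif was found in the windows of Pdgfc and Pdgfra. None of the 5 windows held TATAAA. Over 33469 rat promoters of the same length, 33.1% held the GC box, 34.5% the ETS core and 14.2% TATAAA, so these matches are common.

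The chimera library held 118872850 unique molecular identifiers (UMIs, 1 per captured transcript) in 13299 barcodes, and the SD rat library 70957559 in 10117. After filters, 8230 chimera cells were called rat, 1847 mouse and 1653 mixed by the share of their UMIs on mouse genes, and 8816 SD rat cells remained. The libraries shared 43 barcodes, 33 of them among the cells kept. Clusters were named X-like after marker genes from which the 6 members were left out, as they were from the clustered genes. No mural-like, macrophage-like or lymphatic endothelial (LyEC)-like class was found among the mouse cells, of which 114 lay in unnamed clusters. Levels are CPM, that is UMIs of a member summed over a class and scaled to a fixed total of UMIs on the genes of the own species. They compare classes within 1 gene, and Pdgf members were not ranked against each other.

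Lymphocytes, which should lack the receptors, set the background. In the SD rat the T or NK-like and B-like cells carried 19.9 and 19.2 CPM of Pdgfra and 8.53 and 7.69 CPM of Pdgfrb, in only 94 and 73 cells. The same classes of chimera rat cells carried 2.09 and 1.05 CPM of Pdgfra. A Pdgfra level below about these values in the same library was therefore read as background. The background classes differed between the libraries in other genes too. The 12 FAP markers summed to 569 and 565 CPM in the SD rat classes, compared with 128 and 55.4 in the chimera rat ones.

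Pdgfra, which encodes PDGFRα, was concentrated in FAP-like cells. Its level was 255 CPM (95% interval 250.3 to 261) in the SD rat, 235 (229 to 240.5) in chimera rat cells and 357 (331 to 385) in chimera mouse cells. FAP-like cells held 95.6% of all Pdgfra UMIs of the SD rat cells, 93.5% of those of chimera rat cells and 94.5% of those of chimera mouse cells. At least 1 UMI was found in 81.0% of SD rat FAP-like cells, against 6.38% of T or NK-like cells, at median depths of 10921 and 6611.5 UMIs. Tenocyte or fibroblast-like cells carried 18.3 CPM in the SD rat and 13.2 in chimera rat cells. They were at the lymphocyte level in the first and above it in the second, where that level was lower. Their mouse counterparts, only 40 cells, carried 51.4 CPM. Among the other rat classes, cycling-like cells, named from cell cycle genes alone, carried 77.3 and 97.6 CPM, and Schwann or glial-like cells 34.6 and 69.1 CPM from 27 and 42 UMIs.

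Pdgfrb, which encodes PDGFRβ, was highest in mural-like cells and also present in both fibroblast classes. In mural-like cells it stood at 247 CPM (225 to 271) in the SD rat and 252 (233 to 272) in chimera rat cells. Tenocyte or fibroblast-like cells followed with 80.2 and 74.9 CPM, and FAP-like cells with 40.3 and 48.9. The intervals of these 3 classes did not overlap within either animal. In chimera mouse cells the order of the fibroblast classes was open to counting error, with 83.0 CPM (70.4 to 97.1) in FAP-like and 56.4 (39.0 to 78.8) in tenocyte or fibroblast-like cells. FAP-like cells nevertheless held most Pdgfrb UMIs, 59.8% in the SD rat and 53.9% in chimera rat cells, because they were the most numerous class. Both receptors were detected together in 26.1% of SD rat FAP-like cells, 28.2% of chimera rat and 50.4% of chimera mouse FAP-like cells.

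**Figure D1:**
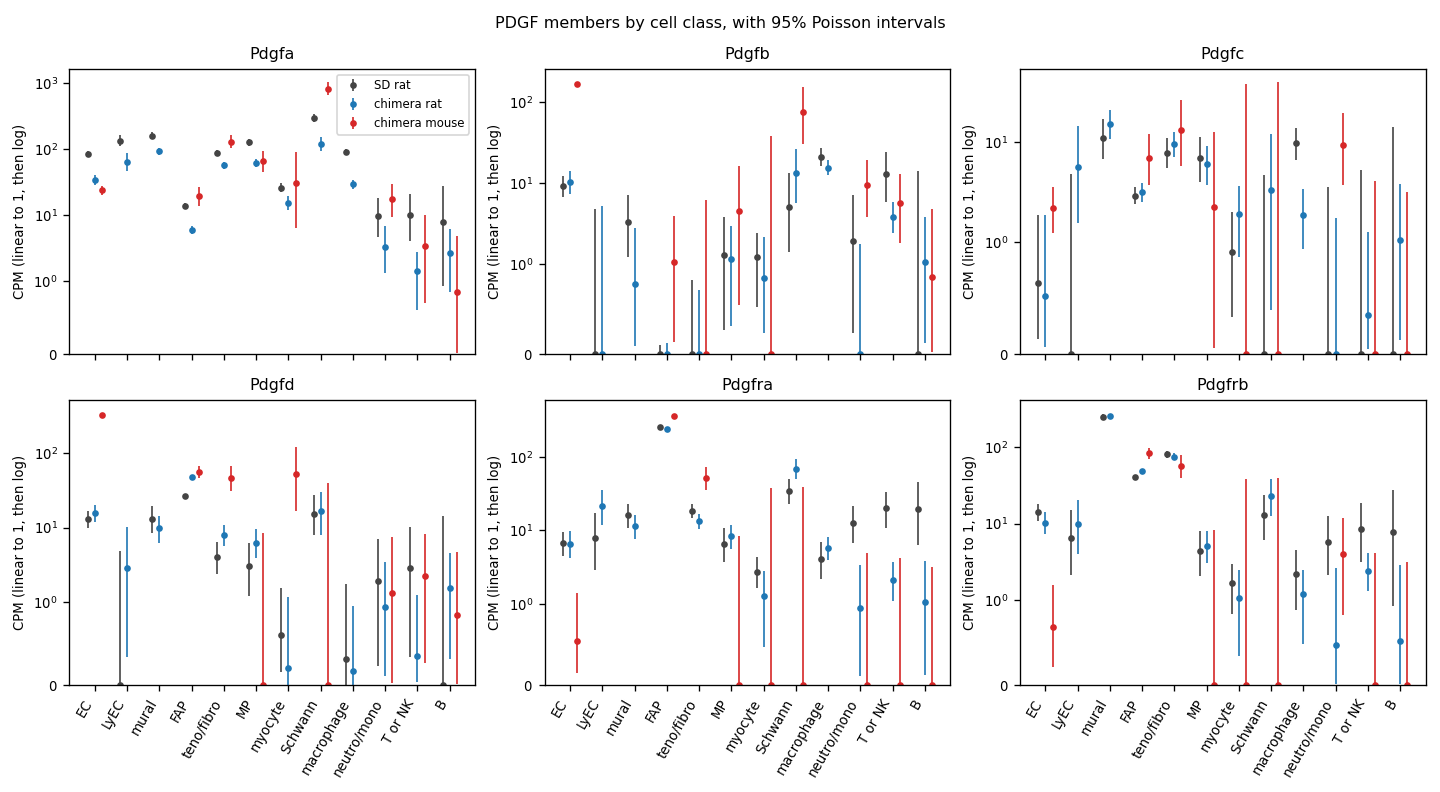
Level of each member in 12 cell classes, in CPM on an axis that is linear up to 1 and logarithmic above, for SD rat cells (grey), chimera rat cells (blue) and chimera mouse cells (red), with 95% Poisson intervals as bars. Pdgfra peaked in FAP-like and Pdgfrb in mural-like cells, whereas Pdgfb and Pdgfd of mouse EC-like cells, at 165 and 320.2 CPM, stood above every rat class on these rows.

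Within the mural-like class, pericyte-like cells, named from pericyte markers, carried the most Pdgfrb. They had 475 CPM (411 to 545) in the SD rat and 642 (569 to 722) in chimera rat cells, against 308 (259.6 to 362) and 163 (136 to 194) in smooth muscle-like cells. The pericyte-like level was thus above the smooth muscle-like level in both animals, and the gap was wider in the chimera. The smooth muscle-like cells of the animals differed in other markers too, with 1695 CPM of EC markers and 10700.1 of mural markers in the SD rat, compared with 102 and 20530.5 in the chimera, whose part was not tested. The remaining unnamed mural sub-clusters, 88 and 151 cells, carried 113 and 177 CPM. These also held endothelial genes, with a summed level of the 11 EC markers of 4654 and 3260 CPM, compared with 432 and 205 CPM in pericyte-like cells. The part of these mixed sub-clusters in the class level was not tested beyond leaving them out.

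FAP-like sub-clusters differed in PDGFRβ more than in PDGFRα. Pdgfra ranged from 214 to 287 CPM over the named sub-clusters of the SD rat and from 199 to 283 in chimera rat cells. Pdgfrb was lowest in Pi16 FAP-like cells, an adventitial progenitor state, with 14.6 and 16.3 CPM in the SD rat and chimera rat cells. It stood at 52.5 and 75.02 CPM in Smoc2 FAP-like cells and 26.2 and 56.3 CPM in Myoc FAP-like cells.

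Pdgfa, the ligand gene best known as a partner of PDGFRα, was spread over many cell classes. Its highest SD rat classes were Schwann or glial-like cells with 292 CPM (255 to 332) and mural-like cells with 158 (141 to 178). LyEC-like cells followed with 134 CPM, myogenic progenitor (MP)-like cells with 125, macrophage-like cells with 89.6, tenocyte or fibroblast-like cells with 85.8 and endothelial (EC)-like cells with 84.9. The first stood apart from all others by its interval, whereas the intervals of the mural-like and LyEC-like classes overlapped. FAP-like cells, the main bearers of the receptor, had only 13.7 CPM. That is near the 9.95 and 7.69 CPM of T or NK-like and B-like cells, from 7 and 2 UMIs. As the most numerous class FAP-like cells still held the largest share of SD rat Pdgfa UMIs, 17.6%. In the mural-like class Pdgfa was highest in smooth muscle-like cells, with 263 CPM in the SD rat and 145 in chimera rat cells.

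Pdgfa was lower in chimera rat cells than in SD rat cells in each of the 8 classes given here. Schwann or glial-like cells had 120.1 against 292 CPM, a log2 ratio of -1.28 (-1.68 to -0.89). Macrophage-like cells had 28.9 against 89.6, a log2 ratio of -1.63 (-1.91 to -1.35), and EC-like cells 34.1 against 84.9, a log2 ratio of -1.32 (-1.61 to -1.03). The log2 ratio was -1.22 in FAP-like, -1.07 in LyEC-like, -1.03 in MP-like, -0.79 in mural-like and -0.61 in tenocyte or fibroblast-like cells. All 8 intervals lay below 0. Beyond these 8, T or NK-like cells, used above as background for the receptors, were lower too. They had 1.39 against 9.95 CPM, a log2 ratio of -2.84 (-4.49 to -1.14), from 8 and 7 UMIs. Whether the difference is particular to cells that express Pdgfa was not tested. Pdgfa passed a 2-fold limit in 5 of the 7 classes in which it had at least 10 CPM on average. The share of all genes at least 2-fold lower in the chimera was 5.1% in Schwann or glial-like, 1.83% in macrophage-like, 2.96% in EC-like, 5.94% in LyEC-like and 2.69% in MP-like cells, with median log2 ratios over all genes between -0.08 and 0.04. In the other 3 classes that share was 4.66% in mural-like, 2.09% in tenocyte or fibroblast-like and 1.5% in FAP-like cells.

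The libraries were mapped to different references, and this touched Pdgfa. In chimera rat cells, 23.0% of all Pdgfa UMIs, 446 beside 1492 on the rat row, lay on the mouse row, which the SD rat reference did not hold. With both rows summed, the log2 ratio was -1.01 in Schwann or glial-like, -1.56 in macrophage-like, -1.17 in EC-like, -1.01 in FAP-like, -0.66 in mural-like and -0.33 in tenocyte or fibroblast-like cells. It was -0.92 in LyEC-like and -0.83 in MP-like cells, short of 2-fold. Pdgfa was thus still lower in the chimera in all 8 classes, by less than on the rat row alone. The summed ratios set 2 chimera rows against 1 SD rat row and are not like-for-like. After each cell was thinned to 1000 UMIs, the LyEC-like ratio was -0.07. Transcripts counted on neither row were not seen, and their part was not tested.

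**Figure D2:**
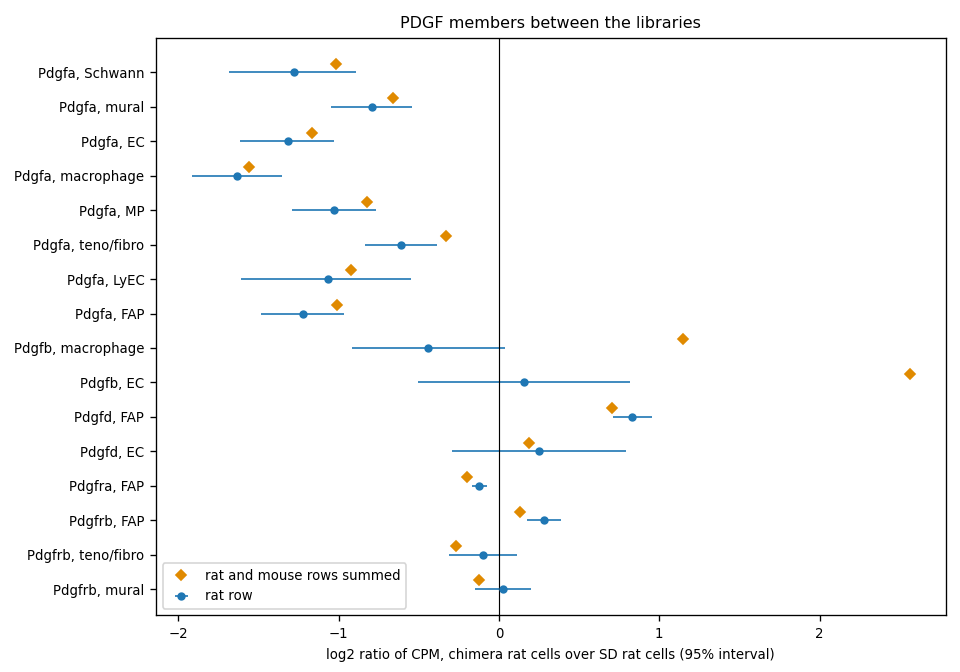
Log2 ratio of CPM in chimera rat cells over SD rat cells for 16 pairs of member and class, with 95% intervals (blue, rat row) and the value with both chimera rows summed over the rat row of the SD rat (orange diamonds). All diamonds set 2 chimera rows against 1 SD rat row and are no like-for-like ratio. Pdgfa lies left of 0 in all 8 classes on either count, whereas the diamonds of Pdgfb are at 1.15 and 2.56.

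Pdgfc had its highest SD rat levels in mural-like, macrophage-like and tenocyte or fibroblast-like cells. FAP-like cells held the largest share of its UMIs, 48.0% in the SD rat and 37.6% in chimera rat cells, at 2.91 and 3.17 CPM. In the SD rat Pdgfc reached 10.96 CPM in mural-like cells (20 UMIs), 9.74 in macrophage-like cells (31 UMIs) and 7.82 in tenocyte or fibroblast-like cells (35 UMIs), with overlapping intervals. In chimera rat cells the same classes carried 15.2, 1.89 and 9.51 CPM. The macrophage-like level was lower in the chimera, with a log2 ratio of -2.36 (-3.50 to -1.33), from 11 against 31 UMIs. Sub-clusters held it more narrowly in both animals. Smooth muscle-like cells had 31.8 CPM (17.8 to 52.5) and 41.5 (28.4 to 58.5), compared with 4.72 CPM and no UMI in 144 cells in pericyte-like cells. Pi16 FAP-like cells had 14.1 CPM (10.7 to 18.3) and 24.0 (18.8 to 30.04), compared with at most 4.63 CPM in the other named FAP-like sub-clusters.

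Pdgfd, a ligand gene of PDGFRβ, had most of its rat UMIs in FAP-like cells, the most numerous class. FAP-like cells carried 26.4 CPM (24.8 to 28.2) in the SD rat and 47.0 (44.5 to 49.6) in chimera rat cells, and held 86.6% and 87.4% of all Pdgfd UMIs. The level was higher in the chimera, with a log2 ratio of 0.83 (0.71 to 0.95), and with both rows summed of 0.70. The share of genes at least 2-fold higher in chimera FAP-like cells was 0.486%, and Pdgfd stayed short of 2-fold. Pi16 FAP-like cells had 49.6 and 67.1 CPM, Smoc2 FAP-like cells 29.7 and 73.7, and Myoc FAP-like cells 28.0 and 41.0. The order of the sub-clusters was thus not the same in the 2 animals, whereas each of the 3 had more Pdgfd in the chimera.

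For the whole classes with most receptor UMIs, the ratios between the rat cells of the 2 animals were small, whereas the sub-cluster levels above differed more. In FAP-like cells the log2 ratio for Pdgfra was -0.12 (-0.17 to -0.08) and that for Pdgfrb 0.28 (0.17 to 0.39), both far from 2-fold. The Pdgfrb ratio turned to -0.13 when rat cells were called at a 90% species threshold. The Pdgfrb ratio was -0.10 (-0.31 to 0.11) in tenocyte or fibroblast-like cells. In mural-like cells it was 0.03 (-0.15 to 0.20), but it changed sign with the choice of cells and ranged from -1.61 to 0.62 over the alternatives. Outside these classes, Pdgfra was higher in chimera Schwann or glial-like cells, with a log2 ratio of 1.00 (0.27 to 1.75) from 42 and 27 UMIs. Of 7291 genes tested in that class, 380 were at least 2-fold higher. A difference in mural PDGFRβ between the animals was therefore not settled by these libraries.

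**Figure D3:**
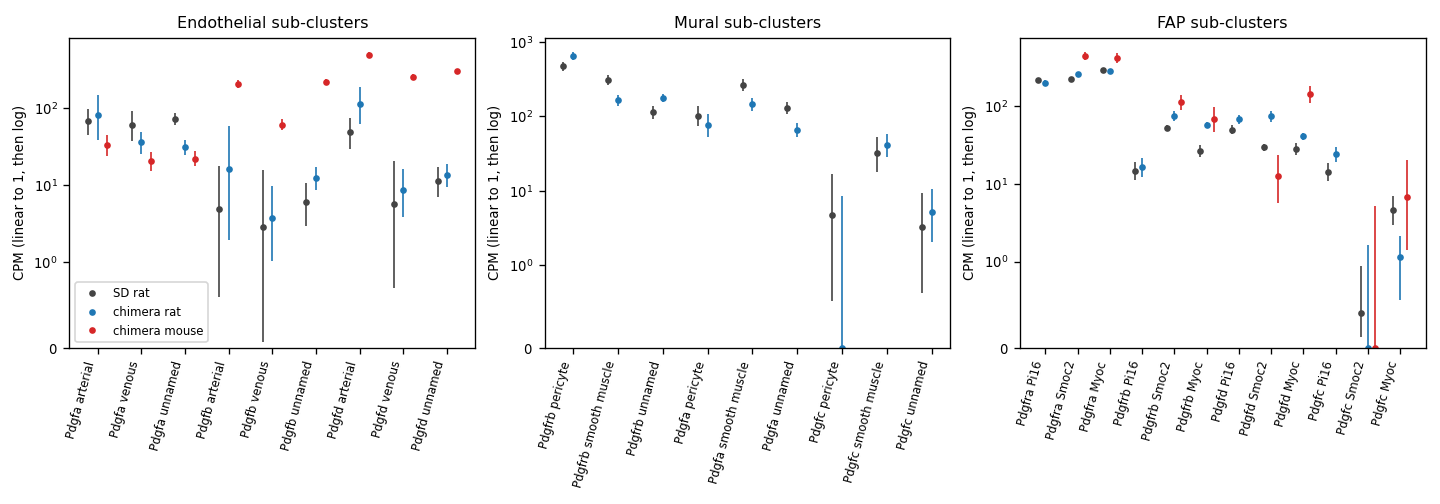
Level of selected members in sub-clusters of endothelial, mural and FAP-like cells, in CPM on an axis that is linear up to 1 and logarithmic above, with 95% Poisson intervals, for SD rat (grey), chimera rat (blue) and chimera mouse cells (red). Pericyte-like cells carry more Pdgfrb than smooth muscle-like cells in both animals, and Pdgfc is found in smooth muscle-like and Pi16 FAP-like cells.

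Pdgfb, which encodes the ligand that recruits pericytes, was scarce on the rat row. Macrophage-like cells led with 21.1 CPM (16.3 to 26.7) in the SD rat and 15.5 (12.5 to 19.0) in chimera rat cells. EC-like cells had 9.15 CPM (6.62 to 12.3) and 10.2 (7.26 to 14.0), from 43 and 39 UMIs. SD rat T or NK-like cells had 12.8 CPM (5.85 to 24.3) from 9 UMIs, an interval that overlapped the EC-like one, whereas chimera rat T or NK-like cells had 3.83 (2.40 to 5.81), below the EC-like interval. No Pdgfb UMI on the rat row was found in 3205 SD rat and 2597 chimera rat FAP-like cells although 0.809% of the latter had a UMI on the mouse row.

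Mouse EC-like cells presented another picture. Pdgfb reached 165 CPM (156 to 174) on the mouse row, from 1209 UMIs in 1080 cells, and Pdgfd reached 320.2 CPM (307 to 333), from 2351 UMIs. At least 1 UMI of Pdgfb was found in 50.1% and of Pdgfd in 57.4% of these cells, against 0.758% for each in mouse B-like cells, at median depths of 5538.5 and 5573.5 UMIs. Both were detected in 34.0% of mouse EC-like cells. Pdgfa had 23.6 CPM in mouse EC-like cells. EC-like cells held 81.6% of Pdgfb and 87.0% of Pdgfd UMIs of all mouse cells, and mouse cycling-like cells also carried 201 CPM of Pdgfb and 208 CPM of Pdgfd.

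Beside rat EC-like cells of the same chimera, mouse EC-like cells had 16.1-fold more Pdgfb (11.7 to 22.8) and 20.7-fold more Pdgfd (16.003 to 27.3), row against row. Against SD rat EC-like cells the factors were 18.0 (13.3 to 24.997) and 24.7 (19.1 to 32.4). Of the gene pairs that share a symbol in both species, 13.9% were at least 2-fold higher in mouse than in chimera rat EC-like cells, and 15.6% in mouse than in SD rat EC-like cells. Only 1.51% of these pairs had a ratio at least as high as Pdgfb and 1.32% as high as Pdgfd in the first comparison. Rows of different species have different annotated ends, so a mouse-to-rat ratio also holds differences of the reference, whose part was not tested. Species and reference row cannot be told apart here.

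For Pdgfb the reference rows can be seen to matter. In chimera rat cells, 78.4% of all Pdgfb UMIs, 648 beside 179 on the rat row, lay on the mouse row. The mouse row had 45.1 CPM over all UMIs of the class in rat EC-like cells and 32.7 in macrophage-like cells. It had 24.8 in Schwann or glial-like cells (17 UMIs), 14.6 in mural-like, 10.9 in T or NK-like (69 UMIs) and 0.706 in FAP-like cells. The mouse row of Pdgfd stood at 1.37 in rat EC-like, 1.09 in macrophage-like and 1.66 in FAP-like cells. Rat EC-like cells held 198 mouse-row UMIs of Pdgfb and 6 of Pdgfd, whereas mouse EC-like cells held 1209 and 2351. Mouse cells, in turn, had 1 Pdgfb UMI on the rat row beside 1481 on their own. Whether the mouse-row UMIs in cells called rat came from those cells or from mouse RNA was not tested.

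With both rows summed, Pdgfb stood at 54.0 CPM over all UMIs in rat and 156 in mouse EC-like cells of the chimera, a log2 ratio of 1.53 where the rows alone gave 4.01. On the summed count rat EC-like and macrophage-like cells, at 54.0 and 46.7 from 237 and 301 UMIs, led the rat classes of the chimera, and their order was not tested. The SD rat table has no mouse row, so a like sum could not be made there. For Pdgfd, only 9.23% of UMIs of rat EC-like cells lay on the mouse row, and its mouse-to-rat log2 ratio lay between 4.15 and 5.45 over the alternatives.

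**Figure D4:**
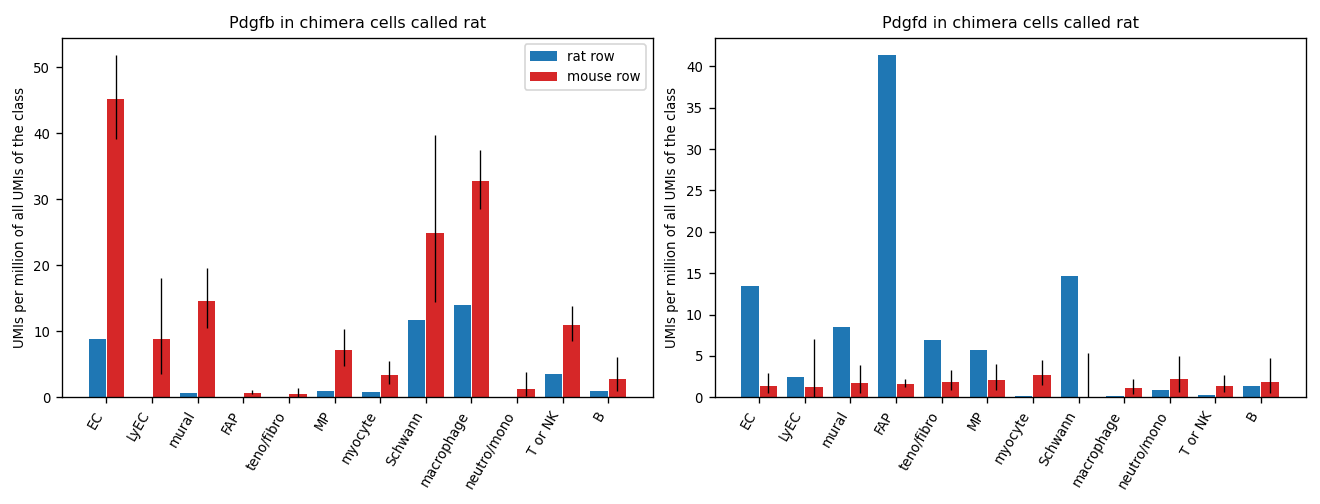
UMIs of Pdgfb (left) and Pdgfd (right) on the rat row (blue) and the mouse row (red) in chimera cells called rat, in CPM over all UMIs of each class, with 95% Poisson intervals on the mouse row. The mouse row of Pdgfb is highest in EC-like and macrophage-like cells, whereas that of Pdgfd stays below 3 in each class shown.

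The ligands differed between the named sub-clusters of mouse EC-like cells, arterial and venous. Of the 1080 mouse EC-like cells, however, 621 lay in unnamed sub-clusters, which are not part of this comparison. Arterial EC-like cells carried 496 CPM of Pdgfd (458 to 536) and venous EC-like cells 256 (236 to 277). Pdgfb was 204 CPM (181 to 231) in arterial and 61.0 (51.6 to 71.7) in venous EC-like cells. Rat arterial EC-like cells also had the most Pdgfd of the named endothelial sub-clusters, with 48.8 CPM in the SD rat (20 UMIs) and 114 in the chimera (14 UMIs), against 5.75 and 8.60 in venous EC-like cells. The arterial and venous intervals of Pdgfd did not overlap in any of the 3 populations. The rat intervals rest on few cells, with 73 arterial and 54 venous in the SD rat and 26 arterial in the chimera. Of the 84 chimera rat venous EC-like cells, however, 14 formed a cluster with a median of 17410.5 UMIs whose leading genes were Tnmd, Dcn and Col1a1, which mark tendon and fibroblasts, so the venous level of the chimera rat cells is uncertain. Of the SD rat EC-like cells, 969 of 1613 lay in unnamed sub-clusters, as did 610 of 720 chimera rat EC-like cells. The whole SD rat class carried 18252 CPM of 4 red blood cell markers, against 6304 CPM in chimera rat EC-like cells. The part of this RNA in the endothelial levels was not tested.

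The receptor genes were carried by rat cells of the same muscle. Chimera rat mural-like cells had 252 CPM of Pdgfrb, while mouse EC-like cells had 0.681 CPM of Pdgfrb and 0.545 CPM of Pdgfra on their own rows. They also held 49 Pdgfrb UMIs on the rat row, beside 5 on their own, whose source was not tested. Rat EC-like cells had 14.0 and 10.2 CPM of Pdgfrb in the SD rat and the chimera, with summed mural marker levels of 509 and 530 CPM, compared with 5902 and 10756 CPM in the mural-like classes. Within the chimera, then, the level of Pdgfb and Pdgfd was higher in mouse than in rat EC-like cells on either count, and Pdgfrb was found in rat mural-like, fibroblast-like and FAP-like cells. A transcript level does not show secretion or binding.

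Mouse FAP-like cells, 127 in number, had more of both receptor genes than rat FAP-like cells of the same animal. Pdgfra was 357 against 235 CPM, a log2 ratio of 0.61 (0.49 to 0.72), and Pdgfrb 83.0 against 48.9, a log2 ratio of 0.76 (0.51 to 1.00). Of same-symbol pairs, 19.7% were at least 2-fold higher in mouse FAP-like cells, and the median log2 ratio was 0.16. A ratio at least as high as that of Pdgfra was found in 31.6% of pairs and of Pdgfrb in 26.2%, so these ratios are not unusual. Pdgfd did not differ beyond counting error, with 55.7 against 47.0 CPM. In tenocyte or fibroblast-like cells the mouse row of Pdgfd was 46.4 against 7.96 CPM on the rat row, from 28 and 41 UMIs. The 26 mouse Schwann or glial-like cells carried 817 CPM of Pdgfa (645 to 1021), above the level of every other class.

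Few listed genes of the PDGF pathway passed 2-fold between the animals. Their median log2 ratio still lay below that of all genes in EC-like, FAP-like, mural-like and tenocyte or fibroblast-like cells. Of 36 listed genes with a rat row, none of 33 tested passed 2-fold in EC-like cells in either direction, where 3.23% of all genes were higher and 2.96% lower. In FAP-like cells 1 of 35 was lower, where 1.5% of all genes were, namely Spry2, which encodes an inhibitor of receptor tyrosine kinase signalling, at 75.7 against 154 CPM. In mural-like cells 4 of 35 were lower and 1 was higher, where 4.66% of all genes were lower and 1.9% higher. The 4 were Pcsk6, a protein convertase, at 7.39 against 21.4 CPM, Stat5b, a transcription factor, at 41.2 against 87.2, Spry1, a relative of Spry2, at 107 against 217, and Spry2 at 38.9 against 78.4. The higher one was Src, a tyrosine kinase, at 19.4 against 8.77 CPM from 50 and 16 UMIs. In tenocyte or fibroblast-like cells 2 of 33 were lower and none was higher, where 2.09% of all genes were lower and 1.09% higher. These were Spry2 at 30.7 against 77.1 CPM and Nck2, an adaptor, at 10.9 against 22.1.

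The median log2 ratio of the listed genes was -0.46 in EC-like, -0.15 in FAP-like, -0.35 in mural-like and -0.22 in tenocyte or fibroblast-like cells, compared with 0.01, 0.06, -0.09 and -0.02 over all genes tested. With rat and mouse rows summed, the lower listed genes numbered 0 in FAP-like, 1 in mural-like and 1 in tenocyte or fibroblast-like cells. The lower counts of listed genes thus rested in part on the choice of reference rows. The medians of the listed genes with rows summed were -0.37, -0.10, -0.41 and -0.17 in the same order of classes. Those over all genes were -0.08, -0.04, -0.18 and -0.12, so the listed genes stayed lower on either count in these classes. They were also lower on either count in MP-like, macrophage-like and Schwann or glial-like cells. In LyEC-like cells the listed median was the higher one, at -0.03 against -0.08, and with rows summed -0.03 against -0.15. The cause was not tested.

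Across the 13 SD rat classes of at least 50 cells, the genes most like each member were found by the Pearson correlation of log2(CPM + 10), as a description over classes that share 1 library. Pdgfra was followed by C1s (r = 0.963), Tmeff2 (0.956) and Sbsn (0.9505), and Pdgfrb by Cacna1c (0.971), Prph (0.954) and Hpgd (0.944). Pdgfa was followed by Ccnd1 (0.888), Fads3 (0.852) and Zfp704 (0.852), and Pdgfd by Sugct (0.876), P4ha2 (0.867) and Has2 (0.859). The likenesses were looser for Pdgfb, with Slc12a7 (0.832), Dok2 (0.808) and Sema4a (0.805), and for Pdgfc, with Arhgap10 (0.799), Fat3 (0.789) and AC128848.1 (0.788).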

How the data were processed

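Skeletal muscle of 1 chimera and 1 SD rat was profiled with a 10x Genomics 3′ v3.1 kit. Per the labels, the authors processed the reads with Cell Ranger 7.1.0 on mRatBN7.2 and GRCm39, and the deposited tables hold unnormalized counts of UMIs for each gene in each barcode. The chimera table holds 23373 rat rows and 25906 mouse rows, the SD rat table the rat rows alone. The 6 members and all gene lists were chosen with earlier results of these data known.

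Barcodes with at least 500 UMIs, 200 genes and at most 20% mitochondrial UMIs were kept. Scrublet in scanpy 1.11.5, at an expected rate of 8%, marked 3.65% of chimera and 1.83% of SD rat barcodes as doublets, which were left out. Cells with at least 80% of UMIs on mouse rows were called mouse, at most 20% rat. Each population was clustered alone (2000 variable genes, 30 components, 15 neighbours, resolution 1). A cluster was named from at least 3 raised markers, at least 2-fold and in 10% of cells, by a ranking settled after the clusters were seen.

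Counts were summed per class and given as CPM; mural-like stands for the pericyte or mural markers. Poisson intervals, Clopper-Pearson intervals and, for ratios, exact binomial intervals cover counting error only. Senders and receivers were SD rat classes of at least 50 cells with 20 UMIs of the member and 50% of its highest level. By the naming rule the text gives the 6 members, pathway genes past 2-fold in 4 classes, and 3 genes most like each member. Background genes had at least 20 UMIs and 10 CPM on average. The fold calls were tested on simulated counts. No per-sample column was left unmapped. The closing section gives 12 alternatives for each ratio and 1 chosen after seeing the data.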

Additional observations from a re-analysis of the deposited data

Results flagged for a closer look

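Barcodes called mixed entered no comparison in the main setting, and their member UMIs are given here as values only. The alternative that calls species by majority counted them as rat or mouse by the larger share. The 1653 mixed barcodes carried 3682 UMIs of the 6 members over both rows. Mouse-row Pdgfd had 1215 UMIs, rat-row Pdgfrb 838 and mouse-row Pdgfb 555. Mouse-row Pdgfb and rat-row Pdgfrb were both found in 117 of these barcodes (7.08%). Whether such barcodes hold 1 cell or more was not tested.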

How the results depend on the processing

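No paired analysis was possible because each group had 1 library, and no replicate could be left out. For 11 main log2 ratios, 102 of 134 alternatives lay inside the 95% interval of the value given above, 31 lay outside it and 1 changed the sign of a ratio whose interval excluded 0. For 25 further log2 ratios, 266 of 301 alternatives lay inside the interval, 35 outside it and 0 changed the sign in this way. With a species threshold of 90%, Pdgfrb in FAP-like cells, chimera rat over SD rat, turned to -0.13. The same threshold gave -1.61 for Pdgfrb and -1.74 for Pdgfa in mural-like cells, 0.46 for Pdgfd and -0.29 for Pdgfra in FAP-like cells, -0.60 for Pdgfrb in tenocyte or fibroblast-like cells, -1.93 for Pdgfa in Schwann or glial-like cells and -1.12 for Pdgfb in macrophage-like cells. It gave 5.35 for Pdgfb and 5.45 for Pdgfd in mouse over chimera rat EC-like cells. Fewer cells entered under this threshold.

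For Pdgfrb in mural-like cells, calling species by majority gave 0.55, at most 10% mitochondrial UMIs 0.62, resolutions of 0.5 and 2 gave 0.26 and 0.27, CPM over all UMIs -0.17, thinning to 1000 UMIs -0.35, and leaving out the unnamed mural sub-clusters, added after seeing the data, -0.20. For Pdgfa in mural-like cells, 10% mitochondrial UMIs gave -0.32 and resolution 2 gave -0.51. For Pdgfa in mouse over chimera rat EC-like cells, majority gave -0.11 and resolution 2 gave -0.89. In FAP-like cells, CPM over all UMIs gave 0.65 for Pdgfd, -0.31 for Pdgfra and 0.10 for Pdgfrb, summed rows gave 0.70, -0.20 and 0.13, and thinning gave -0.19 for Pdgfra and 0.026 for Pdgfrb. For Pdgfb, summed rows gave 1.15 in macrophage-like cells and 1.53 in mouse over chimera rat EC-like cells, and thinning gave 0.48 in macrophage-like cells. Each summed ratio of chimera rat over SD rat cells, for any member, sets 2 chimera rows against 1 SD rat row. The cause was not tested.

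Counts past 2-fold also moved. Summed rows raised all higher genes in FAP-like cells from 35 to 65, lowered all lower genes from 108 to 71, and left 0 lower listed genes in FAP-like, 1 in mural-like and 1 in tenocyte or fibroblast-like cells. A minimum of 100 UMIs left 83 higher and 175 lower genes in mural-like cells, where 152 and 373 were found, and 0 higher listed genes, since fewer genes were tested. After thinning to 1000 UMIs, 22.2% of SD rat FAP-like cells had a UMI of Pdgfra, 29.3% of mural-like cells of Pdgfrb, 22.1% of Schwann or glial-like cells of Pdgfa, and 15.9% and 25.8% of mouse EC-like cells of Pdgfb and Pdgfd. Depth limits Pdgfc and rat-row Pdgfb most, with 221 and 147 UMIs over all SD rat cells.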

Other observations

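Spry2, singled out after its values were seen, was also lower on the rat row in further chimera rat classes, with 69.9 against 197 CPM in MP-like, 26.2 against 71.6 in macrophage-like and 65.8 against 183 in Schwann or glial-like cells. With rat and mouse rows summed, 0 listed genes were at least 2-fold lower in the macrophage-like and the Schwann or glial-like class, and 1 in the MP-like class.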
